A study of Mus musculus with 15 samples.

Results

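Genes of the nuclear pore complex and of the soluble machinery that carries cargo through it were followed in mouse hearts with 1 mutated allele of the lamin gene Lmna. The set was a list of 32 gene symbols, and every probe set of the array that the platform annotation assigns to exactly 1 of them was taken. This gave 84 of the 45101 probe sets, for 30 of 18194 named genes. The inner ring gene Nup35 and the basket gene Tpr had no such probe set and were not analysed here. Probe sets entered the test when 7 or more of the 15 arrays had a log2 signal above 4, whatever their group. All 30 genes had at least 1 tested probe set and 80 of the 84 probe sets were tested. The other 4, one each of Nup133, Nup160, Nup155 and Xpo1, stayed between 1.4 and 55.5 signal units on all arrays. Where a gene had several, the brightest on average stood for the gene as its representative, and the others are given beside it.

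Nuclear pores are channels built from proteins called nucleoporins in the double membrane around the nucleus, and all regulated traffic of proteins and RNA between nucleus and cytoplasm goes through them. Ring-shaped scaffolds hold the pore in the membrane, nucleoporins rich in phenylalanine-glycine repeats fill the channel, and filaments and a basket project from its cytoplasmic and nuclear faces. Importins and exportins carry cargo through this mesh, and the GTPase Ran sets the direction. Pores are anchored beside the nuclear lamina, the filament layer made of lamins, and in cells that no longer divide the scaffold nucleoporins are known as long-lived proteins.

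Total RNA of whole hearts from 15 male mice aged 10 weeks was measured on 1-colour Affymetrix arrays, 1 array per mouse. The control group held 8 mice and the other group 7 mice labelled Lmna H222P heterozygous, which carry the amino acid substitution H222P in 1 of the 2 alleles of Lmna. Strain, litter and the genotype of the controls beyond the word control are not given in the sources used here. In whole-heart RNA, fewer cells of a type and less RNA per cell cannot be told apart.

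The 10 cardiomyocyte markers examined had mean log2 signals from 12.90 to 14.97, and the 7 skeletal muscle markers from 3.92 to 5.88. Array medians lay between 68.5 and 94.2 units in control and between 56.7 and 82.9 units in heterozygous hearts. The geometric mean signal of Lmna itself was 574.8 units in the controls, against 772.1 units in the heterozygous group, and it did not pass the test (limma's adjusted p = 0.349). Since H222P changes the protein and not the presence of the mRNA, the genotype labels could not be checked by this level. Over the whole table, 35 probe sets passed as higher and 63 as lower in heterozygous hearts. This split turned to 56 higher and 20 lower when each array was centred on its median, and to 38 and 27 after quantile normalization.

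None of the 30 genes passed the comparison of the 2 genotypes. By limma's moderated test with Benjamini-Hochberg adjustment over all 38870 tested probe sets and a threshold of 0.05, 0 of 30 representative probe sets and 0 of all 80 member probe sets passed. The same test called 0.289% of the 16627 named genes and 0.252% of all tested probe sets. At an unadjusted p under 0.05 there were 3 member genes, Nup107 and Nup133 higher and Nup214 lower in heterozygous hearts. These 3 are 10.0% of the members, against 15.2% of all named genes. The smallest adjusted p was that of the scaffold gene Nup107, at 0.0703.

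Differences were small for all representative probe sets but that of Nup107. The log2 difference between heterozygous and control hearts lay between -0.37 and 0.40 in the other 29 genes. Its 95% interval stayed within 2-fold in either direction for 26 of 30 members (86.7%), against 58.1% of all named genes and 83.8% of the 10892 named genes with a mean signal no lower than that of the dimmest member. It stayed within 1.5-fold for 21 of 30 (70.0%), against 32.0% of all and 48.5% of those 10892. The genes whose interval reached past 2-fold were Nup107, Nup188, Nup62 and Nup210. The median difference of the 30 members was 0.06 and that of all named genes was -0.08. By representative probe set, 19 members lay above 0 and 11 below, so 63.3% were above 0, against 41.5% of all named genes. Among the same 10892 genes, the median was -0.01 and 48.0% lay above 0. The lean upward was weaker beyond the representatives. Of the 50 other member probe sets 46.0% lay above 0, with a median of -0.06, and of all 80 it was 52.5%. Among all tested probe sets the share was 39.9%. After centring each array on its median, the median of the members was 0.25 and that of all tested probe sets moved from -0.11 to 0.08.

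**Figure D1:**
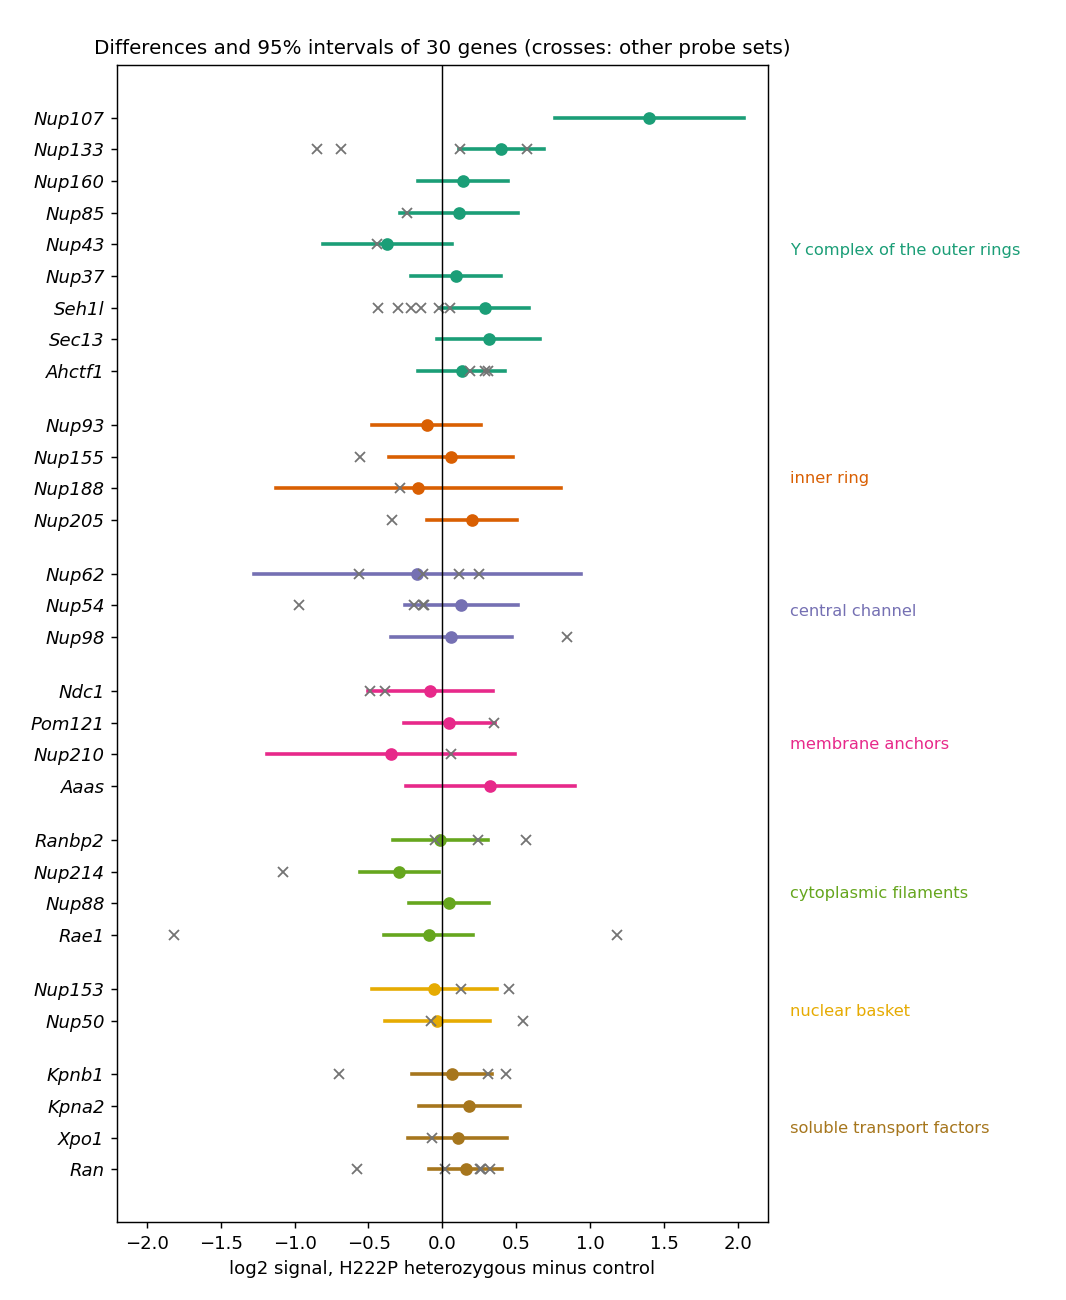
Log2 difference between H222P heterozygous (n = 7) and control (n = 8) hearts for the representative probe set of 30 genes (points) with limma's 95% interval (lines), grouped by place in the pore, and the differences of their 50 other tested probe sets (crosses). Nup107 stands alone at 1.40, while the other 29 points lie between -0.37 and 0.40.

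The outer rings of the pore are built from the Y complex, a branched scaffold. Of its 9 members examined here, 8 (88.9%) had a difference above 0 in the representative probe set, with a median of 0.14. The share above 0 was 41.5% of all named genes and 48.0% of the 10892 no dimmer than the dimmest member. Other probe sets did not share this direction throughout. Averaging all probe sets of a gene put Nup133 at -0.090 and Seh1l at -0.11. The other probe set of Nup85 gave -0.24, farther from 0 than the 0.11 of its representative. Nup107, which sits in the stem of the Y, had the highest difference. In control arrays 1 to 8 its probe set read 89.8, 27.6, 31.4, 55.8, 67.4, 89.5, 35.6 and 109.3 units. In heterozygous arrays 1 to 7 it read 199.1, 104.0, 149.4, 168.4, 156.2, 141.4 and 140.0 units. All but heterozygous array 2 lay above every control. On the log2 scale, though not in units, control arrays varied more among themselves than heterozygous arrays did. Mean log2 signals were 5.82 ± 0.76 (SD, n = 8) and 7.22 ± 0.29 (SD, n = 7). The difference of 1.40 (SE 0.30, 95% interval 0.76 to 2.04), or 2.64-fold, had limma's adjusted p = 0.0703. Nup107 had a single probe set, whose name ends in _s_at, which Affymetrix uses for probes that can match several transcripts, so no other probe set of the gene stands beside it.

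The call of Nup107 depended on the settings of the test, while its direction stayed the same in all 28 alternatives run. It passed in 3 of them: with only brighter probe sets tested (log2 signal above 6 on 7 arrays, adjusted p = 0.0358), with a trended and robust prior of the variance (adjusted p = 0.0334), and with log2 signals under 6 set to 6 (adjusted p = 0.00878, difference 0.99). It did not pass when any single array was left out, with limma's adjusted p between 0.0502 and 0.136.

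**Figure D2:**
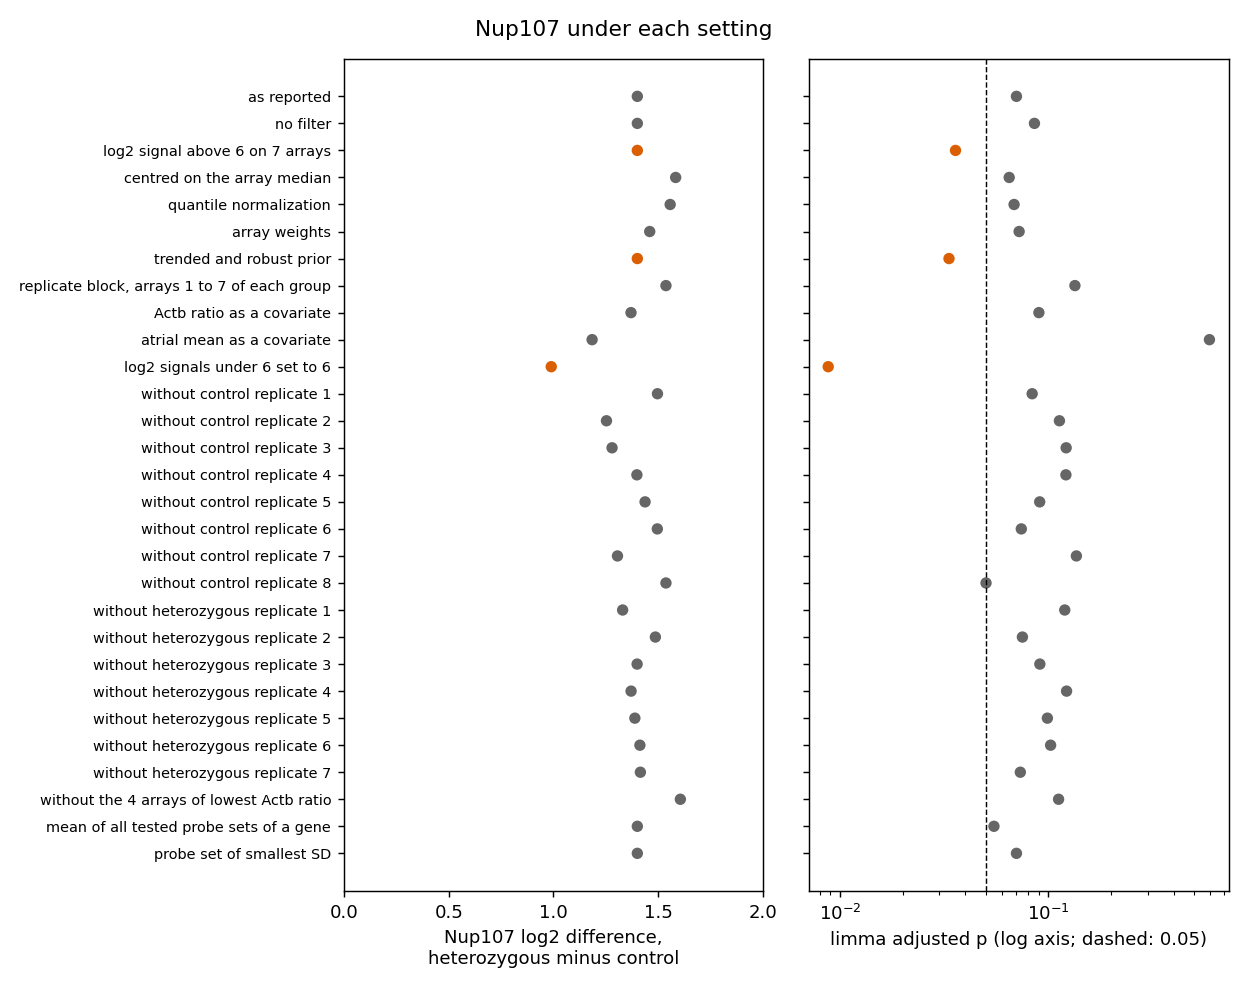
Log2 difference of Nup107 between heterozygous and control hearts (left) and limma's adjusted p (right, log axis, dashed line at 0.05) as reported and under 28 alternatives, 1 point per setting. The difference stays between 0.99 and 1.60, and the 3 orange points are the settings in which it passed.

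Of the marker lists examined, only the atrial list and the erythroid and platelet list held genes that passed. All 3 atrial markers, Sln, Myl7 and Myl4, passed as higher. Their summed signal ran from 215.9 to 3019.4 units in control hearts (median 286.3). In heterozygous hearts it ran from 1398.9 to 16021.6 units (median 5512.3). The mean log2 signal of 5 tested erythroid and platelet markers ran from 7.62 to 8.26 in heterozygous and from 8.87 to 9.25 in control hearts, and 2 of the 5 passed as lower. Of the 8 fibroblast markers, 7 had a difference above 0 and none passed. Their summed signal ran from 13741.2 to 18560.9 units in control and from 19153.0 to 30811.5 units in heterozygous hearts, with no overlap, while their mean log2 signal overlapped (10.06 to 10.52 and 9.90 to 11.09). Of the 5 smooth muscle markers, 4 lay above 0 and none passed, with summed signals of 4895.6 to 6436.3 units in control and 6083.7 to 12235.7 units in heterozygous hearts. No member of the endothelial, macrophage, skeletal muscle, proliferation, adipocyte or cardiomyocyte lists passed either, and the summed signals of these lists overlapped between the groups. The part of the fibroblast, smooth muscle and blood cell markers in the differences of the members was not tested. Control array 6, with the highest atrial mean of the controls, had 89.5 units of Nup107, which was below every heterozygous array and above the control median of 61.6 units. The atrial mean log2 signal was 9.79 in control array 6, 4.81 to 6.12 in the other controls and 8.73 to 12.38 in heterozygous hearts. Genotype and atrial signal can therefore hardly be told apart in these arrays. With the atrial mean of each array as a covariate, the difference of Nup107 was 1.18 with limma's adjusted p = 0.593. That fit called 2 probe sets in all. The log2 ratio of the 5′ to the 3′ probe set of the actin gene Actb, a sign of RNA integrity, ran from -1.23 to -0.29 in control and from -1.69 to -0.33 in heterozygous hearts. Without the 4 arrays of lowest ratio (control 6 and heterozygous 2, 3 and 5), the difference of Nup107 was 1.60 with an adjusted p of 0.112.

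Nup133, which binds the end of the stem next to Nup107, had the next smallest p among the representative probe sets. In control arrays 1 to 8 it read 225.0, 244.2, 282.9, 285.4, 275.6, 283.2, 278.0 and 245.6 units. In heterozygous arrays 1 to 7 it read 291.1, 389.5, 255.1, 364.2, 425.1, 361.7 and 382.5 units. Again 6 of 7 heterozygous hearts lay above every control, and heterozygous array 3 lay among the controls. Mean log2 signals were 8.04 ± 0.13 (SD, n = 8) and 8.44 ± 0.26 (SD, n = 7), a difference of 0.40 (SE 0.14, 1.32-fold) with limma's adjusted p = 0.213. Its other 4 tested probe sets split, with differences of 0.12 and 0.57 in 2 of them and -0.69 and -0.85 in the 2 weakest. When all probe sets of a gene were averaged, the difference of Nup133 was -0.090.

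Nup107 and Nup133 had the smallest p of all members and their products touch in the pore, so their promoters are shown. The 250 bases before the RefSeq start of each gene were taken from assembly GRCm38.p6. They are given 5′ to 3′ on the gene's strand, with matches to the motifs below in capitals. The Nup107 window is chr10:117792706-117792955 on the minus strand and the Nup133 window is chr8:123949266-123949515 on the minus strand.
Nup107: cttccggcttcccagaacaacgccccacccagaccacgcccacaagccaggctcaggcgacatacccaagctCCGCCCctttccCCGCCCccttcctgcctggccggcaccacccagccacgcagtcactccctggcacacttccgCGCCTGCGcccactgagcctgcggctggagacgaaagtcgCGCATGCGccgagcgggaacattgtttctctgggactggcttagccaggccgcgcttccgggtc
Nup133: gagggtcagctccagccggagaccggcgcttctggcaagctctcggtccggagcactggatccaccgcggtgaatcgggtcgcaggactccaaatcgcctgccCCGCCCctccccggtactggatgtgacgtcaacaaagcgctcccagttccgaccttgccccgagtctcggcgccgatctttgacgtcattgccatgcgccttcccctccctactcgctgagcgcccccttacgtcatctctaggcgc

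The motifs searched on both strands were CGCANGCG (NRF1, a regulator of growth and mitochondrial genes), CCGGAAGT (ETS factors), CCAAT (NF-Y), GGGCGG (SP factors) and TATAAA (the TATA box), none of which overlapped another in the Nup107 and Nup133 windows. The Nup107 window held 2 matches to the NRF1 motif, from 104 to 97 and from 64 to 57 bases before the start, and 2 to the SP motif. The Nup133 window held a single match to the SP motif and none to the others. RefSeq windows were at hand for 27 of the 30 members, 30 windows in all. The NRF1 motif was in 5 of these 30 (16.7%, in Nup107, Nup50, Nup62, Pom121 and Ran), against 6.76% of all 32851 windows of the same length. The ETS motif was in 4 (13.3%, in Aaas, Nup155, Nup54 and Sec13), against 2.88%. The SP motif was in 63.3% against 32.7%, the CCAAT motif in 43.3% against 33.8% and the TATA motif in 10.0% against 12.4%. The GC content of the members' windows had a median of 64.2%, against 52.4% for all windows, and a match is a description of these letters only.

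Sec13 and Seh1l, whose products belong to the Y complex and also serve in other complexes of the cell, had the highest differences of the complex after Nup107 and Nup133. Seh1l read 501.4 to 725.7 units in control (median 628.5) and 590.6 to 963.7 units in heterozygous hearts (median 720.2). Heterozygous arrays 2 and 4 were highest, and the groups overlapped. Its difference was 0.29 with limma's adjusted p = 0.371, but 5 of its 7 tested probe sets lay below 0, down to -0.44. Sec13 read 534.6 to 793.4 units in control (median 608.6) and 545.4 to 1120.8 units in heterozygous hearts (median 840.7). The difference was 0.31 with limma's adjusted p = 0.401, and 3 of the 7 heterozygous arrays lay within the range of the controls.

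Nup43 was the only member of the complex whose representative probe set lay below 0. It read 99.4 to 233.4 units in control (median 131.7) and 74.3 to 148.2 units in heterozygous hearts (median 101.9), a difference of -0.37 with limma's adjusted p = 0.423. Control array 7 was highest, and 2 heterozygous arrays lay below every control. Its other probe set gave -0.44. The remaining members of the complex, Nup160, Nup85, Nup37 and Ahctf1 (the gene of ELYS, which brings the Y complex to chromatin as the nucleus re-forms), lay between 0.09 and 0.14. All 4 tested probe sets of Ahctf1 were above 0, from 0.13 to 0.31.

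**Figure D3:**
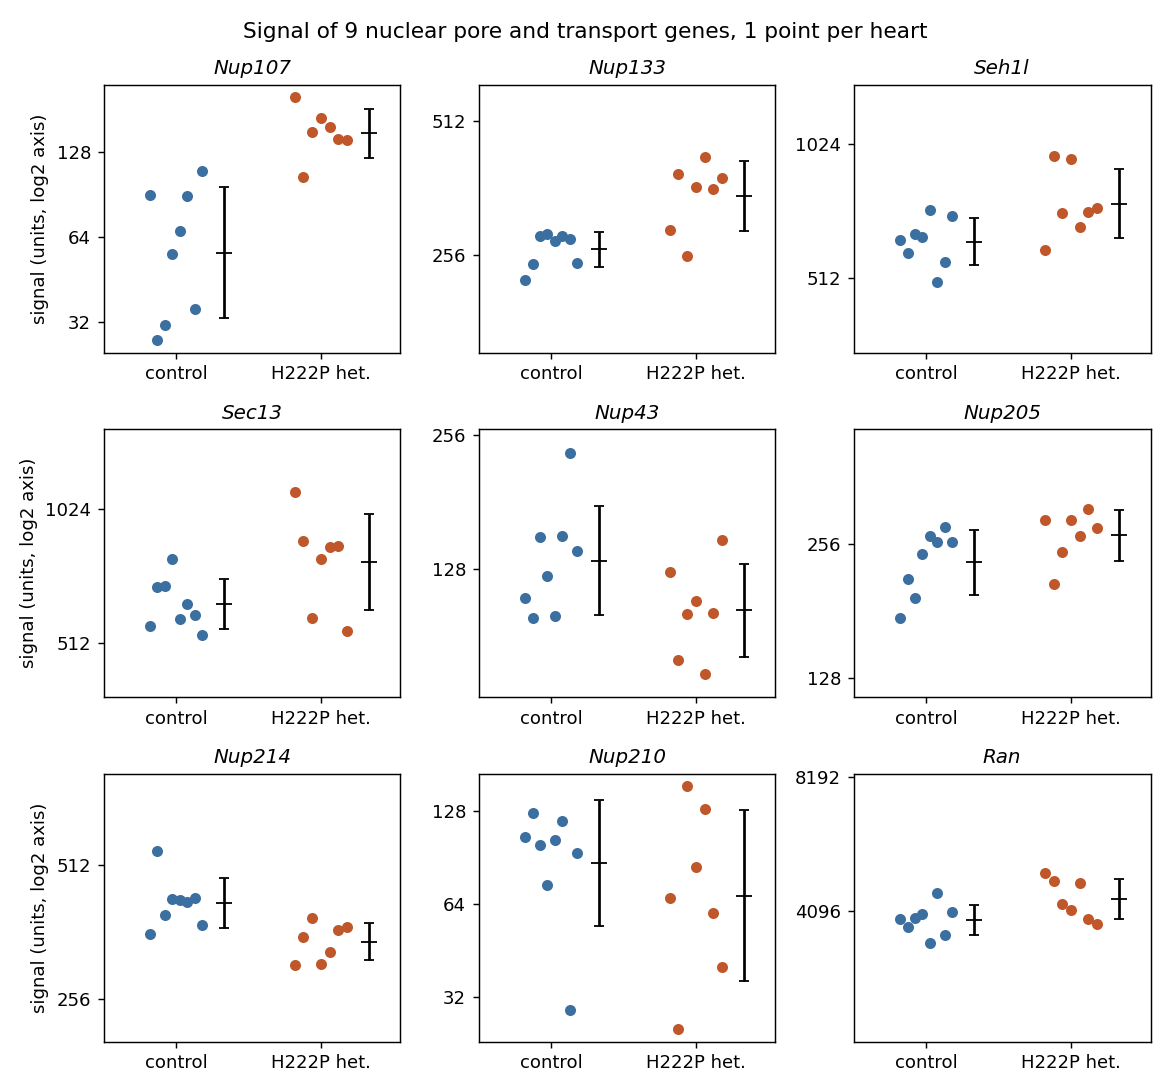
Signal in units (log2 axis) of the representative probe set of 9 genes in each control (blue, n = 8) and H222P heterozygous (orange, n = 7) heart, 1 point per array, with the geometric mean and 1 SD of the log2 values in black. For Nup107 and Nup133 6 of 7 heterozygous points lie above all controls, and in the other 7 genes the groups overlap more widely.

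In the inner ring, which lines the pore membrane and holds the channel, 2 of 4 genes lay above 0 and the median was -0.02. Nup205, a large ring scaffold protein, read 174.9 to 279.2 units in control (median 250.9) and 208.8 to 307.5 units in heterozygous hearts (median 278.9). That is a difference of 0.20 with limma's adjusted p = 0.540, and the other probe set of Nup205 gave -0.34. Nup93, which links the ring to the channel, differed by -0.11 and Nup155, which contacts the membrane, by 0.06. Nup188 varied widely, from 39.3 to 225.8 units in control and from 31.3 to 247.4 units in heterozygous hearts, so that its 95% interval ran from -1.13 to 0.80.

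The 3 genes of the channel proteins, which carry phenylalanine-glycine repeats, had differences of 0.13 (Nup54), 0.06 (Nup98) and -0.17 (Nup62). The representative probe set of Nup62 scattered more than that of any other member, from 136.2 to 1926.5 units in the controls. Its 95% interval ran from -1.28 to 0.94. Its name ends in _x_at, the Affymetrix mark for probes that can also bind other sequences. Of the other 4 probe sets of Nup62, 3 gave 0.11, 0.25 and -0.13 with intervals that stayed within 2-fold, and the weakest gave -0.56. In the controls those 3 read 419.2 to 657.3, 339.3 to 493.0 and 383.2 to 519.8 units. The last of them is also an _x_at probe set. Nup98, whose transcript also encodes the Y complex protein Nup96, had another probe set that gave 0.84 with limma's adjusted p = 0.306.

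Among the genes that tie the pore to the membrane, Nup210, a transmembrane protein known from muscle differentiation, was examined in full as a member of prior interest. In control arrays it read 29.2 to 126.0 units (median 101.25) and in heterozygous arrays 25.2 to 154.4 units (median 66.9). The groups covered each other almost entirely, with a difference of -0.35 (95% interval -1.19 to 0.49) and limma's adjusted p = 0.720. With the atrial mean of each array, which nearly followed genotype, as a covariate, the difference of Nup210 was -1.34 (limma's adjusted p = 0.617). In the fit without that covariate and without heterozygous array 2, the difference of Nup210 was -0.11. Ndc1, a transmembrane anchor, differed by -0.08, and all 3 of its tested probe sets lay below 0, down to -0.49. Pom121, another transmembrane anchor, differed by 0.05 and Aaas, the gene of the Ndc1 partner ALADIN, by 0.33, with limma's adjusted p of 0.908 and 0.603.

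On the cytoplasmic side, where exported RNA and proteins are released, 3 of 4 genes lay below 0 and the median was -0.05. Nup214, a filament protein that binds the exportin Xpo1, had the smallest p of the representative probe sets below 0. In control arrays 1 to 8 it read 358.1, 551.0, 394.1, 428.1, 427.4, 423.0, 431.0 and 374.6 units. In heterozygous arrays 1 to 7 it read 304.8, 352.3, 388.2, 306.3, 326.5, 364.9 and 370.3 units. All 7 heterozygous values lay below the control median and 4 of them below every control. Mean log2 signals were 8.71 ± 0.19 (SD, n = 8) and 8.42 ± 0.14 (SD, n = 7), a difference of -0.29 (SE 0.12) with limma's adjusted p = 0.304. Its other probe set gave -1.08. Nup88, the binding partner of Nup214, differed by 0.04, and Ranbp2, the SUMO ligase of the filaments, by -0.01.

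Rae1, an mRNA export factor, differed by -0.09 in its representative probe set. A weak probe set of Rae1 was the only 1 of the 80 in which the groups did not overlap, against 0.468% of all tested probe sets, and it is named here after its values were seen. It read 33.5 to 97.7 units in control and 2.8 to 31.5 units in heterozygous hearts, a difference of -1.82 (SE 0.56) with limma's adjusted p = 0.182. The remaining probe set of Rae1, weaker still, gave 1.18, so the 3 probe sets of the gene did not share a direction. None of the 30 representative probe sets separated the groups, against 0.589% of all named genes.

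The 2 basket genes examined, Nup153 and Nup50, whose products line the nuclear face and help importins release cargo, differed by -0.05 and -0.04, with limma's adjusted p of 0.927 and 0.945. The soluble transport factors were importin beta (Kpnb1), the importin alpha Kpna2, the exportin Xpo1 and Ran. By representative probe set all 4 lay above 0, between 0.07 and 0.18, where 41.5% of all named genes lay above 0. The other tested probe set of Xpo1 gave -0.07. Ran read 3469.9 to 4490.8 units in control (median 3930.3) and 3818.4 to 4986.1 units in heterozygous hearts (median 4241.1), where arrays 1, 2 and 5 were above every control. Its difference was 0.16 (SE 0.11, 95% interval -0.09 to 0.40) with limma's adjusted p = 0.551. Of its 6 tested probe sets 5 were above 0 and the weakest was at -0.58. The names of 5 of the 6 end in _x_at, the Affymetrix mark for probes that can also bind other sequences, so Ran and its near-identical copies may not be separated. A probe set of Kpnb1, named after its values were seen, gave 0.43, from 345.6 to 442.8 units in control and from 396.1 to 767.5 units in heterozygous hearts (limma's adjusted p = 0.202). The remaining tested probe sets of Kpnb1 gave 0.31 and, in the weakest, -0.70.

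Probe sets of the same gene often differed in sign. Of the 22 members with several tested probe sets, 15 had some above and some below 0 (68.2%), against 56.0% of the 7882 named genes with several. The spread followed the signal. The 16 member probe sets with a mean log2 signal under 6 had a median SD within groups of 1.14 and differences from -1.82 to 1.18. The 64 brighter ones had a median SD of 0.33 and, Nup107 apart, differences from -0.70 to 0.84. The 35 at a mean log2 signal of 8 or more lay between -0.29 and 0.43.

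**Figure D4:**
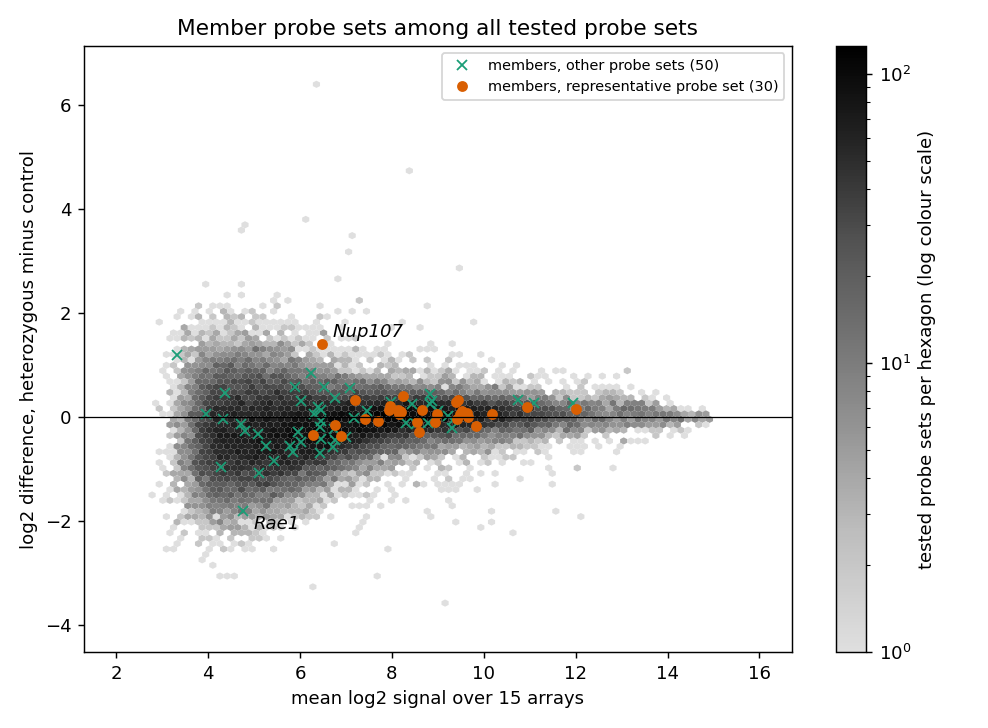
Log2 difference between heterozygous and control hearts against mean log2 signal over 15 arrays for all tested probe sets (grey hexagons, darker where more lie) and for the members' representative (orange points) and other (green crosses) probe sets. Member probe sets narrow toward 0 as the signal grows, with Nup107 (1.40) and a weak probe set of Rae1 (-1.82) farthest out.

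Of 40 other genes of nuclear transport listed, 35 were tested and 0 passed limma's test, which called 0.289% of all named genes. At an unadjusted p under 0.05 there were 3 (8.57%, against 15.2% of all named genes), 1 above and 2 below 0. Of the 35, 16 lay above 0 (45.7%, against 41.5% of all named genes), and their median difference was -0.02, against -0.08. The 3 genes with the smallest p were the exportin Xpo4, the mRNA export factor Gle1 and the importin Ipo13. Xpo4 read 143.6 to 231.6 units in control and 59.9 to 159.7 units in heterozygous hearts, where 6 of 7 arrays lay below every control. The difference of Xpo4 was -0.69 with limma's adjusted p = 0.152, and its other 2 tested probe sets, both weaker, gave 1.04 and -0.98. Gle1, which works at the cytoplasmic filaments beside Nup214, differed by 0.35 (adjusted p = 0.271 by limma), and its other 6 tested probe sets ran from -1.59 to 1.34. Ipo13 differed by -0.50 (adjusted p = 0.277 by limma), with 5 of 7 heterozygous arrays below every control.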

How the data were processed

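The authors' deposited values are array intensities, 1 linear signal per probe set and array, credited to GCRMA in the submitters' processing notes with no version. They did not look like GCRMA output: values had 1 decimal, ran from 0.1 to 80754.9, and the mean after trimming 2% at each end was 250.0 on every array. How signals were summarised from probes is not given in the sources used here. Equal trimmed means leave the array medians free, and scaling alone can shift typical probe sets between groups. No scan dates were used, so no batch could be tested, and the number of arrays limits the precision.

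Signals were log2-transformed with no pseudocount. After leaving out 64 control probe sets, 38870 probe sets with log2 signals above 4 on at least 7 arrays were tested by limma 3.58.1 (lmFit and eBayes under R 4.3.3, with group as the sole term). Gene symbols came from the platform annotation. Signals of different probe sets were used to pick representatives, to set a lower limit of signal for comparison genes and to describe lists. They were not used as relative amounts of mRNA. The 10892 genes at or above that limit were not matched to the members on signal. Nothing in the labels gives litters or batches, and p-values rest on the spread among these 15 mice. A simulation used the means and SDs of all tested probe sets, with independent normal errors and changes placed at random among them. There the test called 0% of changes of log2 0.5, 36% of 1, 58% of 2 and 92% of 4, with 2 false calls. The median SD within groups was 0.65 for all tested probe sets and 0.27 for the members' representatives. The rates are therefore not those of the members. By rule, values over the arrays were given for the 8 members with the smallest p of the representative probe set, and Nup210 and Ran. Ran was among the 8. The same was done for the 3 other transport genes with the smallest p. Promoter letters came from RefSeq tables, read with Python 3.11.15. Figures were drawn with matplotlib 3.10.9. The members, lists and alternatives were chosen with earlier results of these data known.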

Additional observations from a re-analysis of the deposited data

Results flagged for a closer look

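In 6 of the 60 groups examined (30 genes in 2 genotypes), 1 array stood apart from the rest by Dixon's criterion on the log2 scale, where chance gives about 1 in 20. Control array 5 was lowest for Nup62, at 136.2 units against 745.3 to 1926.5 in the other controls, and for Nup88, at 867.2 against 1104.7 to 1248.5. Control array 6 was lowest for Kpna2, at 1326.4 against 1793.2 to 2149.2, and control array 7 for Nup210, at 29.2 against 74.0 to 126.0. Control array 2 was highest for Nup214, at 551.0 against 358.1 to 431.0. Heterozygous array 2 was highest for Nup98, at 872.5 against 421.3 to 565.3.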

How the results depend on the processing

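Of 28 alternatives, 25 left 0 members past the threshold. The count was 1, Nup107, with the log2 filter at 6, with the trended and robust prior and with signals under 6 set to 6, where 192, 312 and 287 probe sets passed in all, in place of 98. Quantile normalization passed 65 and the atrial covariate 2. Leaving out each array in turn gave 0 members and 19 to 154 probe sets. That count moved by over 1.5 times without control arrays 1 to 7 (27, 31, 28, 43, 51, 56 and 19) and without heterozygous arrays 1, 4, 6 and 7 (45, 24, 53 and 154). The median difference of the members was 0.25 after centring on the array median, -0.02 with the atrial covariate and between 0.02 and 0.09 in the other settings that kept all arrays or left out several. With single arrays left out it lay between 0.04 and 0.10. Among the 9 genes named by rule, averaging all probe sets of a gene turned Nup133 to -0.090, Nup205 to -0.071 and Seh1l to -0.11, none past the threshold. The signs of the other members were not followed in this setting. Some of them also had probe sets of both signs, such as Nup85 (-0.24 and 0.11), Nup155 (-0.56 and 0.06) and Nup50 (-0.08 to 0.55). The count of 0 other transport genes held in all 28. The titles share replicate numbers, but same-numbered arrays did not deviate together (r from -0.06 to 0.06, and 1 of 7 heterozygous arrays correlated best with its own number). With that number as a replicate block, over arrays 1 to 7 of each group and without control array 8, 1 probe set and 0 members passed, and the difference of Nup107 was 1.54 (adjusted p = 0.134). The fit without the 4 arrays of lowest Actb ratio was added after seeing the data. A filter also changed which probe sets were tested, and why results moved between settings was not tested. Detection calls were not used, so how far weak signals stand above background is unknown.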
